A study of Mus musculus with 6 samples.

Results

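The genes described here encode the core machinery that makes microRNAs and loads them into the RNA-induced silencing complex (RISC): the Argonautes Ago1, Ago2, Ago3 and Ago4, the nucleases Drosha and Dicer1, their double-stranded RNA-binding partners Dgcr8, Tarbp2 and Prkra, and the exportin Xpo5. They were chosen by name because the AEG-1 protein is reported to be a component of RISC, and every probe set whose single annotated symbol was one of them was taken. Of these 10 genes, 6 (Ago2, Dicer1, Dgcr8, Tarbp2, Prkra and Xpo5) had 8 such probe sets, out of 12393 genes and 22626 non-control probe sets in all. Ago1, Ago3, Ago4 and Drosha had none with their symbol or an older synonym, and their levels were not analysed here.

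In this pathway Drosha and its RNA-binding partner Dgcr8 cut a hairpin from the primary transcript in the nucleus, and Xpo5 carries the hairpin to the cytoplasm. Dicer1 cuts it to a short duplex with the help of Tarbp2 or Prkra, and one strand is loaded into an Argonaute. The loaded Argonaute pairs with messenger RNAs through the seed of the microRNA and recruits GW182 proteins (the Tnrc6 family), which bring in deadenylases and decapping factors. Loss of Dicer1 in mouse hepatocytes is known to raise fetal liver genes.

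The study compared primary hepatocytes, the main functional cell type of liver, in culture, on 3 arrays from Alb/AEG-1 transgenic mice and 3 from wild-type mice. In the transgenic animals AEG-1 (gene symbol Mtdh) is overexpressed under the control of the albumin promoter, which is active in hepatocytes. Both groups were of mixed B6/CBA strain, untreated, and harvested 24 h after plating on collagen, and the labels give no age. The samples are labelled as biological replicates, but separate animals or separate cultures are not named. A p-value thus weighs a difference against the spread between these samples, which is not known to be a spread between animals.

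All values are log2 expression as deposited, and all differences are transgenic minus wild type, so a difference of 1 is a doubling. Array medians lay between 5.61 and 5.64. Correlations across genes were 0.9976 to 0.9982 between arrays of one genotype and 0.9933 to 0.9940 between genotypes. The brightest probe set of Mtdh was higher in transgenic cells by 1.92 (SE 0.10, limma adjusted p = 2.04e-05), and none of its other 5 probe sets passed the test. None of the 11 measured hepatocyte markers changed by limma, 1 had an unadjusted p under 0.05, and their summed level overlapped between the genotypes (17.48 to 17.50 against 17.45 to 17.48). The sum is led by the brightest markers, such as Alb (14.70 against 14.69), and says little about dimmer ones. Saturation of the signal at such levels was not tested. The difference between the 3' and 5' control probe sets, a sign of RNA quality, was 0.84 to 0.92 in transgenic and 0.87 to 0.93 in wild-type arrays for Actb, and 0.10 to 0.11 against 0.01 to 0.13 for Gapdh.

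Of the 6 measured processing and RISC genes, 1 fell, 0 rose and 5 did not pass limma with Benjamini-Hochberg adjustment over all genes at 0.05. Prkra was the gene that fell, and no other had an unadjusted p under 0.05. The share called, 16.7%, lay near the 15.9% called among all genes in either direction (9.05% lower and 6.83% higher). For 1 of the 6 the transgenic and wild-type values did not overlap, against 34.5% of all genes, and at probe set level for 1 of 8, against 31.3% of all probe sets. The median difference of the 6 was 0.09, beside 0.01 over all genes, and the median size of a difference was 0.11, beside 0.10.

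**Figure D1:**
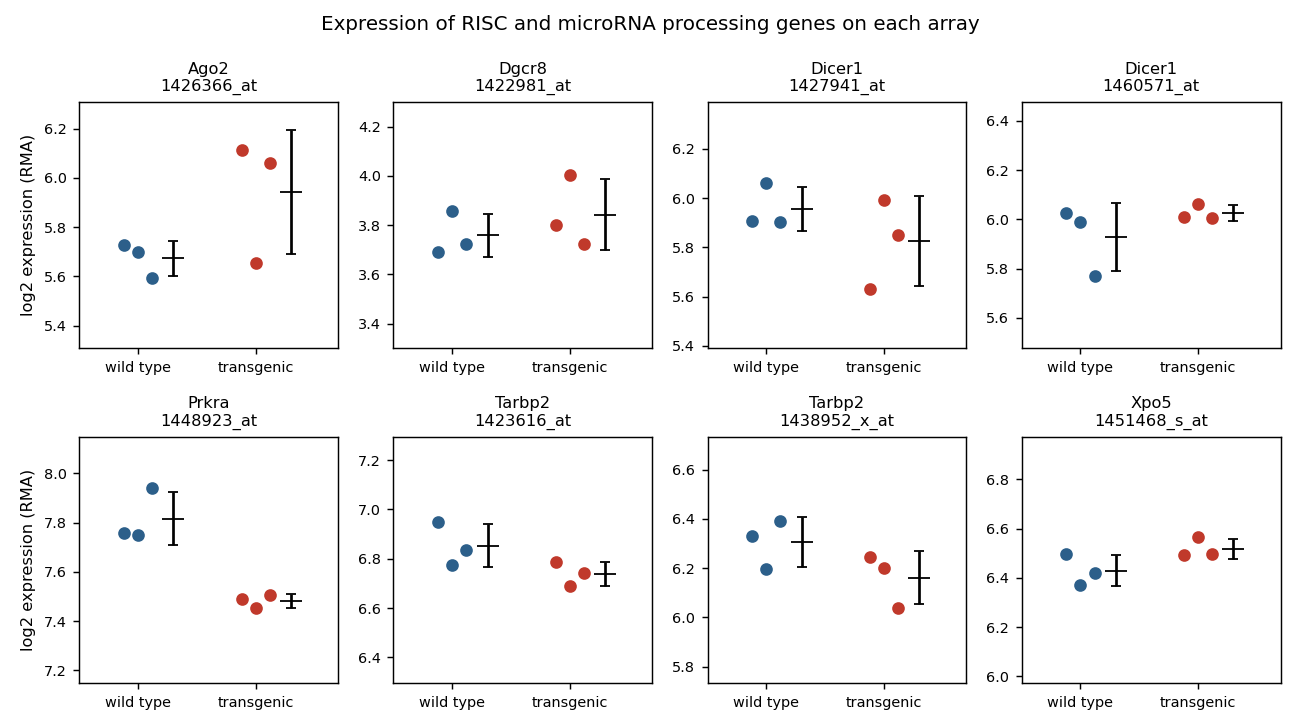
Log2 expression (vertical axis, a span of 1 log2 unit in each panel) on each of the 6 arrays at the 8 probe sets, wild type in blue and transgenic in red, with the group mean and SD (n = 3) in black. Prkra is the panel whose groups do not overlap, and the transgenic arrays of Ago2 lie apart, 2 above 6.0 and 1 at 5.66.

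Prkra encodes PACT, a double-stranded RNA-binding protein that binds Dicer and is also known as the activator of the kinase PKR (gene symbol Eif2ak2). It was measured by 1 probe set, 1448923_at. Its levels were 7.49, 7.45 and 7.51 in the transgenic arrays and 7.76, 7.75 and 7.94 in the wild-type arrays. Every transgenic array lay under every wild-type array, and the transgenic arrays were close together. The difference was -0.33 (SE 0.07, 95% confidence interval -0.49 to -0.18), a level 1.26-fold lower, with a limma adjusted p of 0.0135. With every probe set tested, the adjusted p was 0.0182, beside 12% of probe sets called. The call was lost in an ordinary linear model without moderation (adjusted p = 0.0581), and in the fit over every probe set it was also lost when transgenic replicate 1, 2 or 3 or wild-type replicate 3 was left out (adjusted p = 0.0573, 0.0618, 0.0528 and 0.0520). In bulk samples such as these, a lower level in all cells and a smaller number of cells with the transcript cannot be told apart.

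The promoter of Prkra is shown because it is the gene of this group that fell. The bases before its start in the RefSeq promoter table (GRCm38.p6, chr2:76648028-76648277, minus strand) hold 5 GC boxes, the sequence GGGCGG, marked in capitals. Another start in the gene's RefSeq record lies further upstream, so part of this stretch can be transcribed.

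Prkra: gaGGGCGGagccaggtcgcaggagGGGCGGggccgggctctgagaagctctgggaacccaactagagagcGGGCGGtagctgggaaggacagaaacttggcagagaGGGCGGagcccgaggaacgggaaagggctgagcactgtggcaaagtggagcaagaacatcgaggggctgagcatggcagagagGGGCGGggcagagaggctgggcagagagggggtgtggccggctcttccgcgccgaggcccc

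All 5 GC boxes lay on the strand of the gene. The promoter table holds windows of 250 bases before to 50 after a start, and it matched 9 of the 10 processing and RISC genes, with 10 windows, Ago2 being the gene without one. GC boxes on either strand occurred in 9 of these 10 windows, against 35.7% of 32851 windows of the same length. The windows of Ago1 overlap, so this gene is counted more than once. G and C made up 59.0% to 83.3% of the bases (median 73.7%, beside 52.7% over all windows). The ratio of observed to expected CpG was 0.51, the lowest of the 10, for Prkra and reached 1.19, beside a median of 0.38 over all windows. The letters TATAAA, searched on both strands, were in 0 of the 10 windows and in 13.6% of all. The comparison with all windows was not matched for G and C content, on which the frequency of GGGCGG and TATAAA depends. A match of letters is a description and not a binding site.

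Genes next to Prkra on the chromosome were measured beside it. Plekha3, the third gene on one side, which encodes a phosphoinositide-binding protein, was at 6.91 ± 0.24 against 7.30 ± 0.09 (SD, n = 3), a difference of -0.39 (95% confidence interval -0.66 to -0.13, limma adjusted p = 0.0547). Fkbp7, an endoplasmic reticulum prolyl isomerase between them, gave -0.24 (adjusted p = 0.156). Osbpl6, the neighbour on the other side, gave 0.08 (adjusted p = 0.441). The nearest 2 measured genes on one side thus gave negative values that did not pass. Ttn, the next gene beyond Plekha3, gave 0.22 (adjusted p = 0.338), and Cyct, beyond Osbpl6, gave -0.01. Fkbp7, Osbpl6, Ttn and Cyct lay under the median of all probe sets, 5.63. The relation of these neighbours to Prkra was not tested. Over the 6 arrays, the 3 genes whose values followed Prkra most closely, by root mean square distance from values centred on the wild-type mean, were Cetn2 (distance 0.02), Rwdd3 (0.03) and Tfb2m (0.03). At their brightest probe sets they were lower by 0.30 to 0.35. The distance includes the difference between the genotypes, so a fall close to that of Prkra follows from the choice and is no separate result. The Cetn2 value came from a probe set that can match several transcripts, its other probe set gave -0.10 (adjusted p = 0.437 over every probe set), and the mean of both gave -0.22 (limma adjusted p = 0.0521). The Rwdd3 value also came from a probe set that can match several transcripts, at a dim level (4.76 against 5.07). Of the 3 probe sets of Rwdd3, 2 passed as lower. Cetn2 encodes a centrin of the centrosome and Tfb2m a mitochondrial transcription factor.

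Tarbp2 encodes TRBP, the other double-stranded RNA-binding partner of Dicer and a relative of PACT. At its brightest probe set, 1423616_at, the transgenic arrays read 6.79, 6.69 and 6.74 and the wild-type arrays 6.95, 6.78 and 6.84. The groups overlapped, with transgenic replicate 1 just above wild-type replicate 2. The difference was -0.11 (SE 0.06, 95% confidence interval -0.26 to 0.03, limma adjusted p = 0.291). Its second probe set, 1438952_x_at, gave -0.14 (confidence interval -0.33 to 0.04, adjusted p = 0.307 over every probe set), from 6.24, 6.20 and 6.04 against 6.33, 6.20 and 6.39. Both probe sets gave a negative difference that did not pass, and the intervals leave room for a level that is higher by a few hundredths or lower by about the size seen for Prkra. The intervals of Prkra and Tarbp2 overlapped, and the difference between these genes was not tested.

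Dicer1 encodes the nuclease that cuts the hairpin. At its brightest probe set, 1460571_at, the transgenic arrays read 6.01, 6.06 and 6.01 and the wild-type arrays 6.02, 5.99 and 5.77. The groups overlapped, and wild-type replicate 3 was the low array. The difference was 0.10 (SE 0.08, 95% confidence interval -0.08 to 0.27, limma adjusted p = 0.453). The other probe set, 1427941_at, read 5.63, 5.99 and 5.85 against 5.91, 6.06 and 5.90, a difference of -0.13 (confidence interval -0.36 to 0.09, adjusted p = 0.453 over every probe set). The probe sets of Dicer1 thus had opposite signs, neither passed, and their mean gave -0.02 (adjusted p = 0.915).

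Ago2 is the Argonaute with slicing activity, the nuclease at the centre of RISC. Its probe set, 1426366_at, read 6.12, 5.66 and 6.06 in transgenic arrays and 5.73, 5.70 and 5.59 in wild-type arrays. Transgenic replicates 1 and 3 lay above every wild-type array, while transgenic replicate 2 lay within the wild-type range. The mean was 5.94 ± 0.25 against 5.67 ± 0.07 (SD, n = 3), a difference of 0.27 (SE 0.12, 95% confidence interval -0.0013 to 0.54, limma adjusted p = 0.175). Without transgenic replicate 2 the difference was 0.41 and passed (adjusted p = 0.0119), whereas the lowest value with another array left out was 0.18. The Ago2 result therefore turns on 1 array, and with all 6 arrays it did not pass.

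Dgcr8 encodes the RNA-binding subunit of the Drosha complex. Its signal was low on the array: 3.80, 4.01 and 3.73 in transgenic and 3.69, 3.86 and 3.73 in wild-type arrays, at a probe set brighter than only 19.7% of all. At such a level signal is near background and a difference is understated. The difference was 0.08 (SE 0.09, 95% confidence interval -0.11 to 0.28, limma adjusted p = 0.573).

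Xpo5 exports the hairpin from the nucleus with the small GTPase Ran. Its probe set, 1451468_s_at, read 6.49, 6.57 and 6.50 in transgenic and 6.50, 6.37 and 6.42 in wild-type arrays. The groups met at wild-type replicate 1, which was level with transgenic replicates 1 and 3. The difference was 0.09 (SE 0.06, 95% confidence interval -0.04 to 0.22, limma adjusted p = 0.364). The suffix of this probe set's name marks probes that can match more than one transcript.

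**Figure D2:**
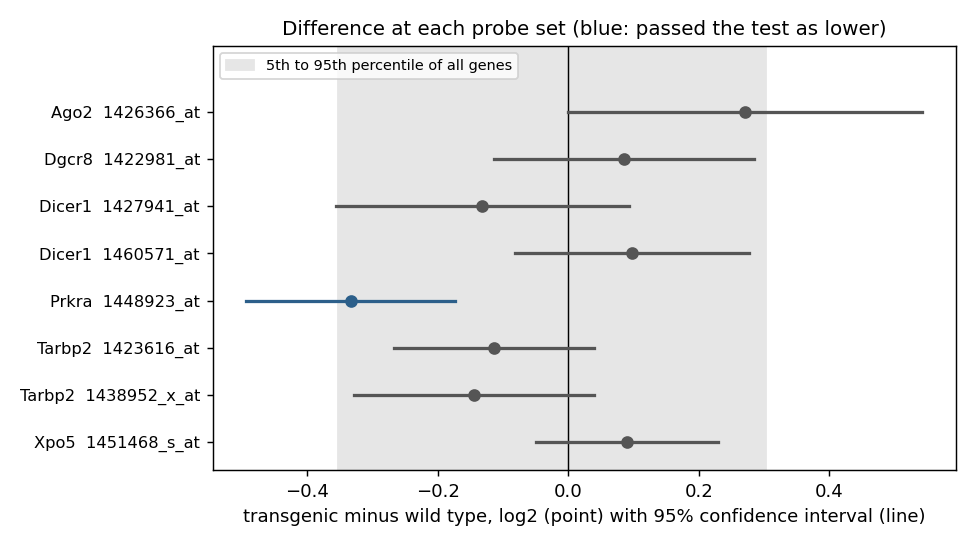
Transgenic minus wild-type difference on the log2 scale (point) with its 95% confidence interval (line) at each of the 8 probe sets, from the limma fit over every probe set. The grey band spans the 5th to 95th percentile of the differences of all genes, -0.35 to 0.30. Prkra, in blue, passed the test and lies just inside the lower edge of the band, and the intervals of the other 7 include 0.

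The rest of the pathway was read from 6 lists of related genes, of which 96 of 124 genes were measured. In all, 20 of the 96 passed (20.8%, beside 15.9% of all genes), 9 higher and 11 lower, with a median difference of 0.00. The 9 higher include Mtdh, which is overexpressed by design, and the share was not taken without it. The differences between lists were not tested. Groups did not overlap for 34.5% of all genes, and statements of no overlap for single genes below are to be read beside that share.

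**Figure D3:**
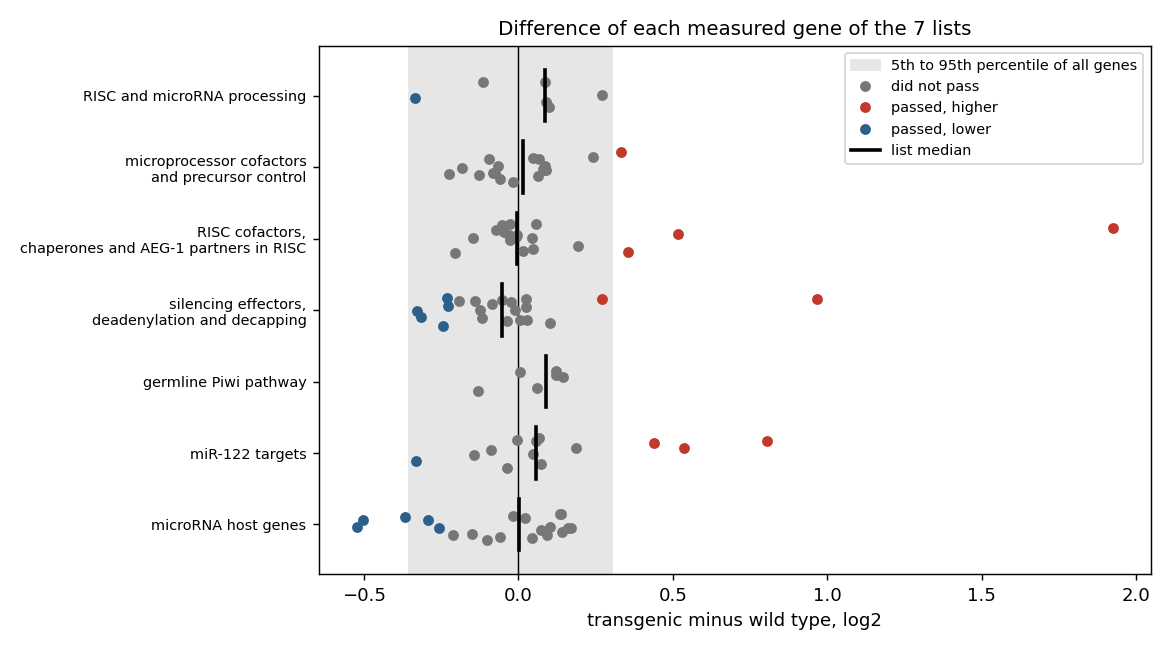
Transgenic minus wild-type difference on the log2 scale for each measured gene of the 7 lists, with genes that passed as higher in red, those that passed as lower in blue, the others in grey and the list median as a black bar. The point at 1.92 is Mtdh itself. The list medians lie between -0.05 and 0.09, and the grey band marks the 5th to 95th percentile of all genes.

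Most cofactors of the nuclear cut and of precursor export did not pass the test. Of 18 measured genes 1 rose and 0 fell (5.6%, beside 15.9% of all genes), and 4 had an unadjusted p under 0.05. Srsf3, a splicing factor that also binds primary microRNA transcripts, read 10.05, 10.08 and 10.20 in transgenic and 9.72, 9.78 and 9.83 in wild-type arrays. The groups did not overlap, the difference was 0.33 (SE 0.06, limma adjusted p = 0.0109), and all 6 probe sets of Srsf3 passed as higher, from 0.23 to 0.66. The helicase genes Ddx5 and Ddx17 gave -0.02 and -0.07, and Ran gave -0.06. Xpo1, a general exportin, gave -0.22 (limma adjusted p = 0.0554), with no overlap between the groups. Adar, which edits double-stranded RNA including hairpins, gave 0.24 (95% confidence interval -0.01 to 0.49, adjusted p = 0.186). The list had 4 genes higher without probe sets that can match several transcripts and 2 higher where the probe sets of each gene were averaged, and 1 gene lower without genes under the median level, with a variance trend or with array weights.

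Among RISC cofactors, chaperones and reported partners of AEG-1 in RISC, 3 of 18 rose and 0 fell (16.7%, beside 15.9% of all genes). Mtdh, which is overexpressed by design, was 1 of the 3, and the share was not taken without it. With Mtdh counted, 6 of the 18 had an unadjusted p under 0.05. Snd1, the RISC nuclease reported to bind AEG-1, was at 8.84 ± 0.08 against 8.87 ± 0.08 (SD, n = 3), a difference of -0.03 (95% confidence interval -0.18 to 0.13, limma adjusted p = 0.851), and none of its 3 probe sets passed. Fkbp5, an immunophilin cochaperone of the heat shock protein machinery that loads Argonautes, read 8.08, 8.01 and 8.00 against 7.55, 7.53 and 7.46. Its groups did not overlap, and it rose by 0.52 (SE 0.06, adjusted p = 0.000756), with its other probe set also past the threshold at 0.31. Fkbp5 is also widely known as a glucocorticoid target. The chaperone genes Hsp90aa1 and Hspa8 gave 0.00 and -0.07, and the helicase gene Mov10 gave 0.04.

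Eif2ak2 encodes PKR, the kinase that PACT activates, and is known as an interferon-induced gene. It read 6.79, 6.70 and 6.75 in transgenic and 6.43, 6.42 and 6.34 in wild-type arrays. The groups did not overlap, in the direction opposite to Prkra. The difference was 0.35 (SE 0.06, limma adjusted p = 0.00476), and its other probe set gave 0.31, also past the threshold. The window around the start of Eif2ak2 is shown beside that of Prkra because these genes encode a kinase and its activator and moved in opposite directions. It holds 1 match, in capitals, to the interferon-stimulated response element, searched as GAAA, any 2 bases and GAAA (GRCm38.p6, chr17:78882535-78882564, minus strand), which begins 19 bases into the transcript.

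Eif2ak2: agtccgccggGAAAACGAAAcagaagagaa

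This element, searched on both strands, was in 3.4% of all windows and in 0 of the 10 windows of the processing and RISC genes, Prkra included. That says only that the letters are absent from those windows.

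Of 21 measured effectors that Argonautes recruit, 7 passed at the brightest probe set (33.3%, beside 15.9% of all genes), 5 lower and 2 higher. The higher calls, Cnot7 and Pan2, did not hold across probe sets or fits, as given below. Those that fell were Cnot6 and Cnot6l, catalytic subunits of the CCR4-NOT deadenylase, Tnrc6a, which encodes a GW182 protein, the helicase gene Ddx6 and the CCR4-NOT scaffold gene Cnot2 (-0.23, adjusted p = 0.0406, named after its value was seen). Cnot6 fell by 0.33 on the log2 scale at its brightest probe set (SE 0.06, limma adjusted p = 0.00695), with 3 of its 4 probe sets past the threshold as lower. Cnot6l gave -0.32 (adjusted p = 0.0170), with 2 of 4 past it. The Tnrc6a call (-0.23, adjusted p = 0.0296) was carried by 1 of 8 probe sets, the others lying between -0.22 and 0.26, and the mean of its probe sets gave -0.02. For Ddx6 (-0.24, adjusted p = 0.0352) 1 of 3 probe sets passed. Tnrc6b and Tnrc6c, the other GW182 genes, gave -0.19 (adjusted p = 0.203) and 0.01.

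Cnot7, a deadenylase subunit that pairs with Cnot6 or Cnot6l, had the largest difference of this list but its probe sets disagreed. At the brightest, 1430519_a_at, it read 8.62, 8.38 and 8.54 in transgenic and 7.46, 7.60 and 7.59 in wild-type arrays, a difference of 0.97 (SE 0.08, limma adjusted p = 0.000165). At 1423641_s_at it read 7.57, 7.43 and 7.61 against 7.89, 8.07 and 8.07, which passed as lower, by -0.47 (adjusted p = 0.00608 over every probe set). The third gave -0.11 and did not pass. The mean of the 3 gave 0.13 (adjusted p = 0.193), so no direction can be given for the gene as a whole. Pan2, the deadenylase that acts first on long tails, was the other higher call (0.27, adjusted p = 0.0403). Its 1 probe set missed the threshold in the fit over every probe set (adjusted p = 0.0522). The call was lost under 7 of 13 alternatives, among them the fits without transgenic replicate 1, 2 or 3 or wild-type replicate 1 or 2 (adjusted p = 0.129, 0.0634, 0.0976, 0.0929 and 0.120).

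**Figure D4:**
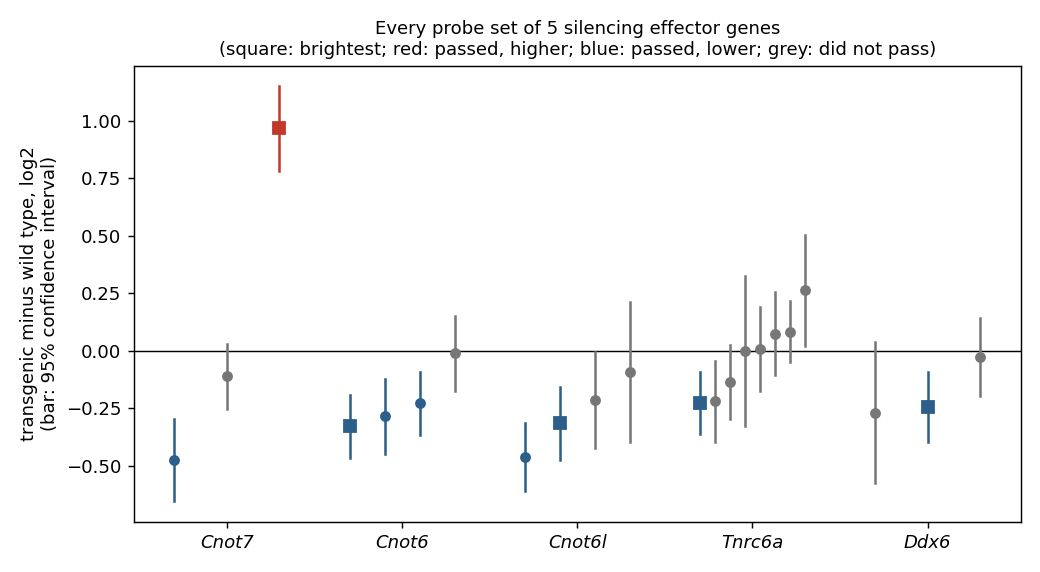
Transgenic minus wild-type difference on the log2 scale with its 95% confidence interval at every probe set of Cnot7, Cnot6, Cnot6l, Tnrc6a and Ddx6, the brightest of each gene as a square. The probe sets of Cnot7 run from -0.47 to 0.97, those of Cnot6 and Cnot6l are all negative, and Tnrc6a passed at 1 of 8.

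Several of the effector calls lay close to the threshold. The number lower was 3 without transgenic replicate 1, 2 without transgenic replicate 2, 2 without transgenic replicate 3, 1 without wild-type replicate 2 and 1 without wild-type replicate 3. It was also 2 with a replicate block, with quantile normalization, with probe sets averaged per gene and without moderation. It was 3, with 0 higher, without probe sets that can match several transcripts, a fit in which Cnot7 and Pan2 were not measured. The number higher was 1 in each of the fits without transgenic replicate 1, 2 or 3 or wild-type replicate 1 or 2. Calls over all genes also became fewer, from 1967 to between 1267 and 1700 with an array left out. They numbered 1271 without moderation, 1505 with the block, 1902 with quantile normalization and 1966 with probe sets averaged. Part of the loss among effectors is thus shared with all genes, and a loss particular to them was not tested. Cnot6 passed as lower under all 15 alternatives run, with adjusted p up to 0.0322.

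Genes of the Piwi pathway, the germline relatives of the Argonautes, were read beside these lists, since hepatocytes are not known to rely on it. Wild-type means of the measured genes ran from 2.85 (Ddx4) to 4.99 (Piwil1), under the median of all probe sets, 5.63. At such low signal a difference is understated, so a lack of calls here is a weak comparison for the brighter lists. None of 6 measured changed by limma (0, with 1 at an unadjusted p under 0.05), and 1 was called higher by a linear model without moderation. Piwil2 was at 3.93 ± 0.02 against 3.79 ± 0.00 (SD, n = 3), a difference of 0.15 (adjusted p = 0.0942) at a level near background.

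Targets of miR-122, the dominant microRNA of hepatocytes, were read as transcripts that RISC is known to hold down in liver. Of 13 measured, 3 rose and 1 fell (30.8%, beside 15.9% of all genes). Among the 13, 5 had an unadjusted p under 0.05, and the median difference was 0.06. P4ha1, a collagen prolyl hydroxylase subunit, read 7.67, 7.71 and 7.53 against 6.89, 6.78 and 6.84. Its groups did not overlap and it rose by 0.80 (SE 0.07, limma adjusted p = 0.000199), with both probe sets past the threshold. Aldoa, a glycolytic aldolase, rose by 0.44 (adjusted p = 0.00164, 4 of 4 probe sets higher) and Tmed3, a cargo receptor of the secretory pathway, by 0.54 (adjusted p = 0.00371). Ccng1, which encodes cyclin G1, fell by 0.33 (adjusted p = 0.0246). That call was lost without transgenic replicate 1, 2 or 3 or wild-type replicate 1 or 3, leaving 0 lower, and with the mean of its probe sets (-0.20, adjusted p = 0.0714). All probe sets of Aldoa and Tmed3 are of the kind that can match several transcripts, and without such probe sets 1 of the targets was higher in place of 3. The other 9 targets, among them the amino acid transporter gene Slc7a1 at 0.00, did not pass. The list did not move as 1 group, and the level of miR-122 itself was not measured by these values.

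Host genes enclose microRNA hairpins, and where the hairpin lies on the strand of the gene, the messenger RNA is an indirect reading of the primary transcript and not of the mature microRNA. Of 20 measured, 5 fell and 0 rose (25%), and 7 had an unadjusted p under 0.05. Among all genes 15.9% were called, 9.05% as lower. By position in GRCm38.p6, 19 of the 20 enclose at least 1 RefSeq hairpin. Lpp enclosed none, the hairpin in Dnm2 lies on the opposite strand, and the strand of Smc4, one of those that fell, was unknown in the tables used. Without probe sets that can match several transcripts, 3 were lower in place of 5. Evl and Srebf1 have no other probe sets and were not measured in that fit. Those that fell were Pank3, Pank1, Smc4, Evl and Srebf1, and the hairpins inside Srebf1, Mir6921 and Mir6922, are not the miR-33 that its relative Srebf2 carries. Mature sequences are shown for a set chosen by hand from Pank3, Pank1, Smc4 and Evl. Those of Srebf1, the host with the smallest p, are left out. Bases 2 to 8, the seed, are in capitals.

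miR-103-3p (in Pank3): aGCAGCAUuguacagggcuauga
miR-107-3p (in Pank1): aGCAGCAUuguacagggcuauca
miR-15b-5p (in Smc4): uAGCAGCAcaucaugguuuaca
miR-16-5p (in Smc4): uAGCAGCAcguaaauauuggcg
miR-342-3p (in Evl): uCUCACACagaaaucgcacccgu

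The 5 microRNAs have 3 seeds. miR-103-3p and miR-107-3p share theirs and differ by G22C, counted from the 5′ end, and miR-15b-5p and miR-16-5p share another. The latter pair comes from 1 gene, Smc4, and Pank3 and Pank1 are relatives. With a chosen set, the shared seeds are no result about the hosts that fell. The sequences of miR-103-3p and miR-16-5p are each also made from a second hairpin gene, outside the hosts shown. Mir103-2, another miR-103 hairpin, lies in Pank2, a listed host gene that was not measured. The microRNAs of the miR-103 and miR-107 seed are known to target Dicer1, whose own values are given above.

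Pank3, a pantothenate kinase gene of coenzyme A synthesis, read 8.76, 8.89 and 8.73 in transgenic and 9.19, 9.14 and 9.14 in wild-type arrays. Its groups did not overlap and the difference was -0.37 (SE 0.06, limma adjusted p = 0.00596), while its second, dimmer probe set gave -0.23 and did not pass. Its relative Pank1 read 10.96, 10.97 and 10.88 against 11.15, 11.25 and 11.19, a difference of -0.26 (adjusted p = 0.0205). Both probe sets of Pank1 passed as lower, and the second gave -0.44. Pank genes are also known as targets of the lipid receptor PPARA. The Pank1 call was lost without transgenic replicate 1 or 3 or wild-type replicate 2 or 3 (adjusted p = 0.0576, 0.0715, 0.0654 and 0.0595).

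Smc4, a condensin subunit of mitotic chromosomes, read 5.94, 5.93 and 6.11 against 6.34, 6.57 and 6.58. It fell by 0.50 (SE 0.09, limma adjusted p = 0.00623), with 2 of 3 probe sets past the threshold. Evl, an actin regulator, fell by 0.29 at its brightest probe set (adjusted p = 0.0144), but its other probe set gave 0.15, the mean gave -0.07 (adjusted p = 0.649), and without transgenic replicate 1 the adjusted p was 0.0582. Srebf1, a regulator of lipid synthesis, fell by 0.52 (adjusted p = 0.000698). Without transgenic replicate 1, 3 host genes passed as lower. Mcm7, the host of the miR-106b, miR-93 and miR-25 hairpins, gave -0.21 (adjusted p = 0.0531), and Srebf2 gave 0.10 (adjusted p = 0.291).

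Markers of other liver cells were measured beside these genes. Among all genes 6.83% were called higher and 9.05% lower. Kupffer cell and macrophage markers had 3 of 12 risen (Ptprc by 0.61, Marco by 0.69 and C1qc by 0.35) and 0 fallen, with a summed level of 10.55 to 10.59 in transgenic and 10.35 to 10.50 in wild-type arrays, and 2 of the 12 lay under the array median. In that list 11 differences were positive, while Csf1r gave -0.10, and Cd5l and Clec4f gave only 0.02 and 0.06. Sinusoidal endothelium markers had 3 of 10 risen (Clec4g, Bmp2 and Kdr, by 0.41 to 0.56), with a summed level of 9.90 to 9.99 against 9.61 to 9.77. There 7 differences were positive, while Cdh5 gave -0.11, Stab1 -0.05 and Fcgr2b -0.01. Neither of these lists moved as 1 group. Of 5 cholangiocyte markers 1 was called higher, Epcam (by 1.52), and 4 lay under the array median. Their summed level was 8.36 to 8.44 in transgenic and 8.15 to 8.21 in wild-type arrays. The others did not pass: Krt19 gave 0.36 (limma adjusted p = 0.115), Cftr 0.05, Sox9 -0.02 and Krt7 -0.03. These markers thus did not move as 1 group. Stellate cell markers had 1 of 10 called higher, Lum (0.20, limma adjusted p = 0.0442), a call lost under 11 of 14 alternatives, including each array left out (adjusted p = 0.0531 to 0.114). Of lymphocyte and neutrophil markers 0 of 10 changed by limma, with 1 at an unadjusted p under 0.05. The summed levels of both lists overlapped between the genotypes. The part of these cells in the values of Prkra, Eif2ak2 and the other genes was not tested.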

How the data were processed

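Hepatocyte RNA from 3 transgenic and 3 wild-type samples was hybridised to Affymetrix mouse expression arrays. The authors deposited log2 expression values per probe set; the submitters' processing notes name RMA and the Affymetrix Expression Console. Software versions and joint or separate normalization of the 6 arrays: not given in the sources used here. RMA equalises the distribution between arrays, so values are relative to the rest of the transcriptome. Arrays have no read depth, and their number limits the precision.

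Of 22690 probe sets, 64 were controls, 20380 carried 1 gene symbol, 691 several and 1555 none. Symbols were updated by gene identifier to RefSeq GRCm38.p6, which also gave promoter and microRNA sequences. The probe set with the highest mean represented a gene (12393 genes). Differences were tested with limma 3.58.1 (with R 4.3.3 and version 1.17.8 of data.table), two-sided, with Benjamini-Hochberg adjustment at 0.05 over all genes, and again over all 22626 non-control probe sets. The procedure was tested on simulated data. Alternatives were the mean of probe sets per gene, removal of probe sets that can match several transcripts or of dim genes, other scalings, other variance models, a replicate block and each array left out. An exact permutation test of 3 against 3 arrays cannot give a p under 0.1 and was not used. Named genes are the processing and RISC genes, Mtdh, Snd1, up to 6 called genes of each pathway list by p, up to 3 of each marker list, and the 3 genes nearest to the leading one. The genes and lists were chosen with earlier results of these data known. Other genes given with values were chosen after these were seen.

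The labels do not say that replicate numbers pair animals, so the numbers were not taken as pairs. Correlations of deviations from the group mean between same-numbered arrays of the genotypes were -0.01, -0.01 and 0.10. For replicate 3 the same-numbered wild-type array was the best partner, and for replicates 1 and 2 it was not.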

Additional observations from a re-analysis of the deposited data

How the results depend on the processing

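The count of processing and RISC genes called, 1 of 6, was the same under 13 of 15 alternatives. It was 0 without moderation, where 1271 genes passed in all, and ranged from 1 to 2 when an array was left out, the 2 being Prkra and Ago2 without transgenic replicate 2. With every probe set tested the count of 1 became 0 without moderation and ranged from 0 to 1 with an array left out, being 0 without transgenic replicate 1 or 3 or wild-type replicate 3. Over all genes, 1267 to 1700 passed with an array left out, against 1967, the lowest being without transgenic replicate 1. The pathway lists held 14 to 26 called genes against 20. Prkra stayed negative under all 15 alternatives, from -0.37 to -0.27, with adjusted p from 0.00165 to 0.0581. Dicer1 changed sign with the mean of its probe sets (-0.017), which disagree in sign. Snd1 did so after quantile normalization (0.0066) and without transgenic replicate 3 (0.022), its range with an array left out being -0.071 to 0.022, and it passed the test in none of these. With the replicate block 1 processing gene, 16 list genes and 1505 genes passed, and the calls of Ddx6, Tnrc6a, Pan2, Kdr and Lum were lost (adjusted p = 0.0634, 0.0683, 0.0608, 0.0533 and 0.0793). The block was not part of the main model because the labels do not say that replicate numbers pair animals. The filter on genes under the median level removed Ago2, Dgcr8 and Dicer1, and leaving out probe sets that can match several transcripts removed Xpo5, Cnot7, Pan2, Aldoa, Tmed3, Evl, Srebf1, Ptprc and Epcam. Low signal limits Dgcr8 most.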
